A study of Mus musculus with 12 samples.

Results

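Ribosome biogenesis and RNA polymerase I were followed through 46 named genes in mouse embryonic stem cells with and without the deletion of Ronin. The genes were chosen by symbol for their known role, with earlier results of these data known. For each gene the probe set with a single symbol and the highest mean over the 12 arrays was taken. All 46 were found among 18194 genes. They were sorted into 6 genes of RNA polymerase I and its cofactor, 8 of the small nucleolar ribonucleoproteins (snoRNPs), 13 of small subunit assembly, 14 of large subunit assembly and 5 nucleolar proteins with several roles.

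Ribosomes are built mostly in the nucleolus. RNA polymerase I transcribes the long ribosomal RNA precursor there, snoRNPs guide its methylation and pseudouridylation, and assembly factors fold and cut it as ribosomal proteins join to make the small and the large subunit. Embryonic stem cells divide fast and have prominent nucleoli, and genes of this kind are widely known as targets of the MYC family.

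RNA came from mouse embryonic stem cells of 2 genotypes, with 2 arrays for each genotype on days 1.5, 3 and 6. In all groups both Ronin alleles (gene Thap11) were floxed and all cells received 0.25 µM tamoxifen, starting from 100000 cells per 10 cm2, with a split on day 4. Controls were Roninflox/flox, and knockout cells were CreERT2; Roninflox/flox, a difference that sets the recombinase and the lines apart together with the deletion. The labels do not tell whether both arrays of a group stem from different cultures. The p-values therefore reflect only how far such arrays spread, and that spread may be technical. The driver of CreERT2, the number of lines and any feeder cells are not given in the sources used here.

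Thap11 read 1262 and 1181 in controls and 327 and 354 in knockout cells on day 1.5, and 1305 and 1382 against 50.6 and 51.5 on day 6. The stem cell markers Pou5f1, Nanog and Sox2 were at 10976 to 12601, 5279 to 6992 and 7422 to 8973 over all arrays. Of 15 fibroblast markers some were low, such as Col1a1 at 37.0 to 79.0, and others were not, such as Fn1 at 3947 to 5018, Vim at 525 to 1473, Tagln at 175 to 1631 and Acta2 at 147 to 1668. Array medians were 44.36 to 44.72 for the 4 arrays of day 3 and 42.37 to 43.04 for the other 8. Between the 2 arrays of a group the SD of the log2 difference over the 46 genes was 0.0465 to 0.112, the widest being controls of day 3. The intensities have no detection calls here, and the number of arrays limits the precision.

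Against controls of the same day, the direction of the difference turned over time, and on day 3 it depended on which controls were used. On day 1.5 only 1 of 46 genes was higher in knockout cells and 1 lower (5.93% and 3.98% of all genes were called higher and lower). On day 3, 22 of 46 were higher and 1 lower, against 13.3% and 10.0% of all genes. The count of 22 was 13 without knockout replicate 1 or 2 of day 3, and 10 when only the arrays compared were fitted. On day 6, 19 of 46 were lower and 2 higher, against 15.3% and 17.2% of all genes. The median log2 fold change of the 46 genes was -0.02, 0.16 and -0.11 on the 3 days, and over all genes it was 0.00, 0.03 and 0.00. Every change was small: the largest was 0.65 on the log2 scale, and 0 of 46 genes differed by 2-fold or more on any day.

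**Figure D1:**
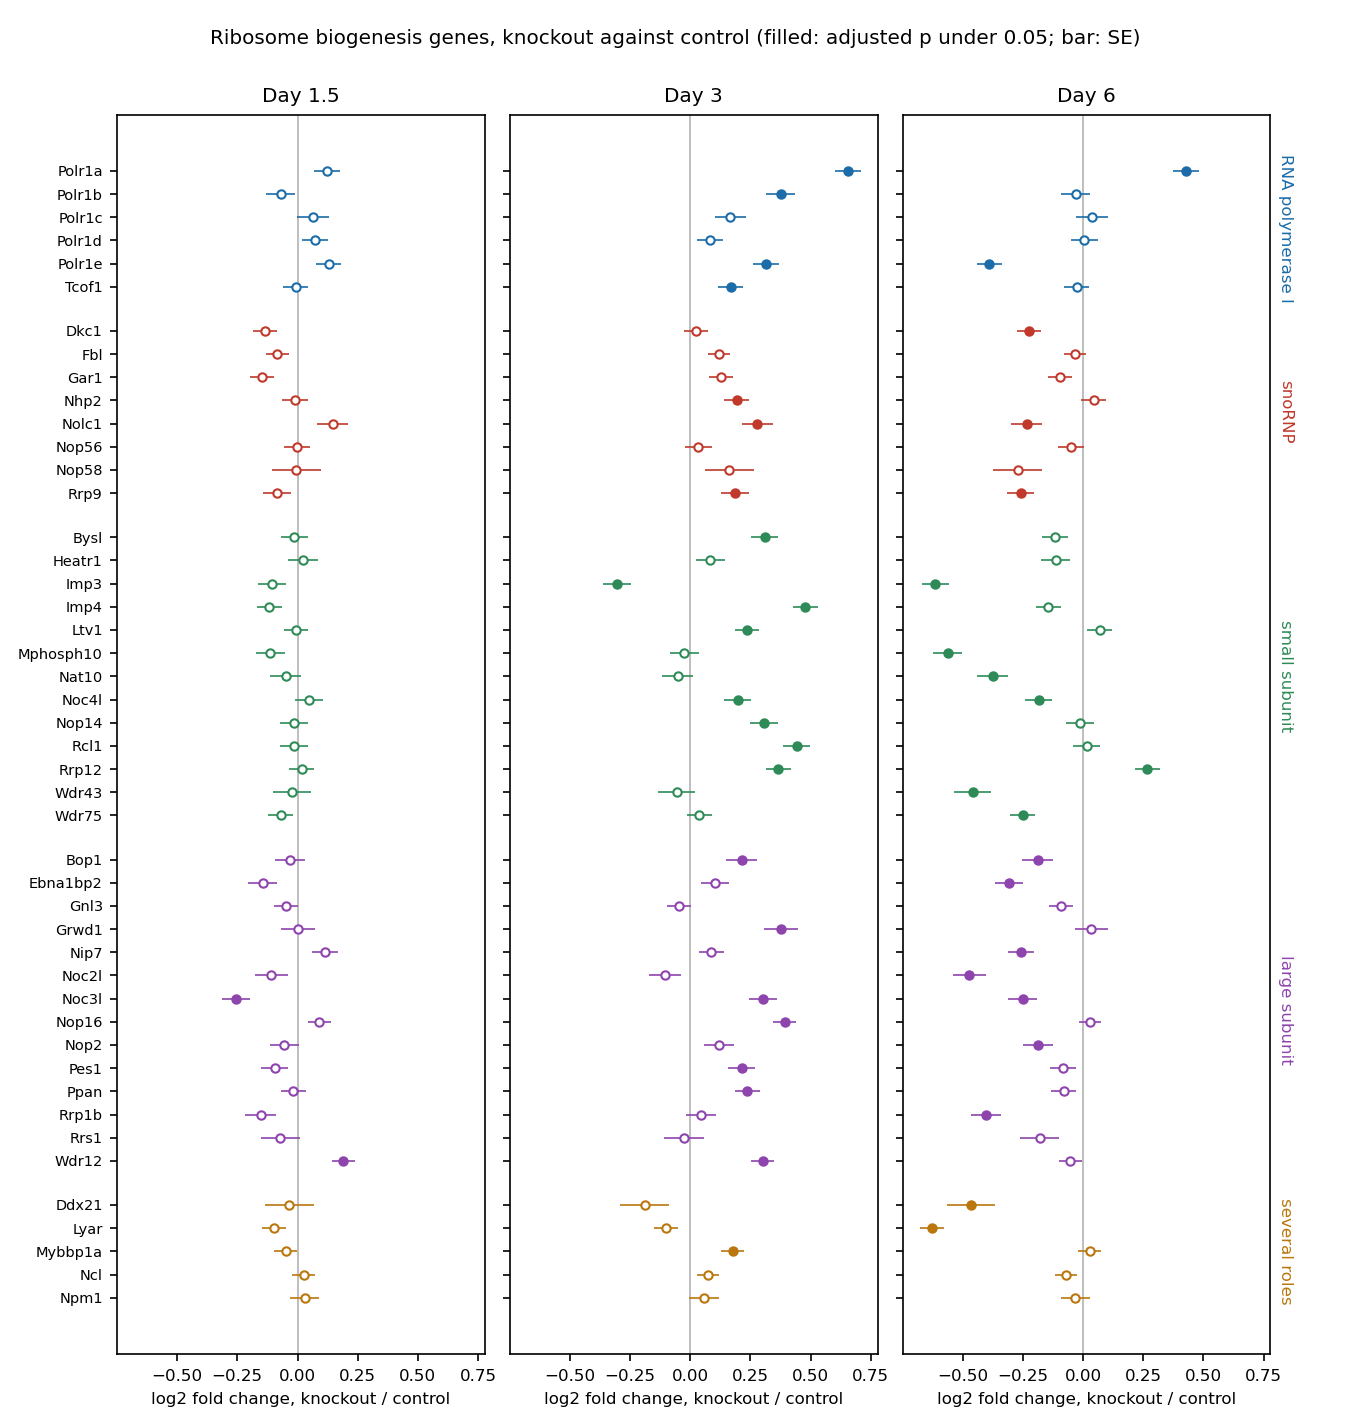
Log2 fold change of knockout over control (horizontal axis) for each of the 46 genes (rows, coloured by role) on days 1.5, 3 and 6, from 2 arrays per group. Bars are standard errors and filled points have an adjusted p under 0.05; on day 3, 22 filled points lie right of 0 and 1 left, and on day 6, 2 lie right and 19 left.

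The knockout effect of day 6 minus that of day 3 was tested in the same model. It passed the threshold for 28 of 46 genes, all toward lower values on day 6, while 8.75% of all genes passed in that direction and 7.69% in the other. By limma 0 of 46 passed toward higher values, also 0 at an unadjusted p under 0.05. The count was 17 without knockout replicate 2 of day 3, 15 and 17 without control replicate 1 or 2 of day 6, and 15 and 16 without knockout replicate 1 or 2 of day 6. Both higher on day 3 and lower on day 6 were 6 genes, 27.3% of the first group and 31.6% of the second. They were Polr1e, Rrp9, Nolc1, Noc4l, Bop1 and Noc3l. For each of these but Polr1e, a call of day 3 or day 6 was lost in some fit without 1 array. How many of all genes were called on both days was not counted. For day 3 minus day 1.5, 13 of 46 passed upward and 0 downward (7.62% and 7.34% of all genes), and for day 6 minus day 1.5, 2 passed upward and 10 downward (9.32% and 10.0%).

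The control cells themselves changed on day 3, and this bears on the day 3 result. Against day 1.5, 25 of 46 genes were lower in controls of day 3 and 0 were higher, where 18.2% of all genes were called lower and 9.12% higher. At an unadjusted p under 0.05, 1 gene was higher. The deepest fall was in Imp4, a U3 snoRNP protein of the small subunit processome, from 2054 and 2066 on day 1.5 to 1319 and 1251 on day 3 (log2 fold change -0.68 ± 0.052 SE, adjusted p = 4.6e-05). Noc3l fell by 0.52, Polr1b by 0.52 and Rcl1 by 0.44. The count was 16 without control replicate 1 of day 1.5, and 16 without control replicate 2 of day 3.

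By day 6 the controls no longer differed from day 1.5 past the threshold. From day 3 to day 6, 24 of 46 genes were higher and 0 lower, also 0 lower at an unadjusted p under 0.05 (19.5% and 8.01% of all genes). That count was 15 without control replicate 2 of day 3, and 15 and 11 without control replicate 1 or 2 of day 6. Between days 6 and 1.5 no gene passed in either direction (1.09% of all genes higher, 0.473% lower). At an unadjusted p under 0.05 only Polr1e differed, at 0.13 higher on day 6. Imp4 read 2031 and 1995 in controls of day 6, close to the 2054 and 2066 of day 1.5.

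Markers of extraembryonic endoderm also dipped in controls of day 3. Of 10 such markers 7 were lower than on day 1.5 and 0 higher (18.2% and 9.12% of all genes), and their summed intensity went from 3355 to 3435 on day 1.5 to 1204 to 1322 on day 3. In knockout cells the same sum was 2144 to 2195 on day 1.5 and 1334 to 1343 on day 3. Over all arrays Gata4 read 30.4 to 43.9 and Gata6 41.1 to 117. Col4a1 at 378 to 2079 and Lama1 at 395 to 1009 were the brightest of the 10 and weigh most in the sum. Of 9 trophoblast markers 2 were lower (22.2%) and 1 higher (11.1%), near the shares of all genes, with sums of 5277 to 5298 and then 3698 to 4017 in controls. Of 15 fibroblast markers 4 were lower (26.7%) and 1 higher (6.67%), with a median of -0.07 on the log2 scale and sums of 7394 to 7540.5 and then 6147 to 6471. Whether cells of these types were present, or had a part in the dip of the ribosome biogenesis genes, was not tested. In bulk RNA fewer cells of a type and less RNA per cell cannot be told apart.

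Set against the controls of days 1.5 and 6 together, knockout cells of day 3 had 3 of 46 genes higher and 14 lower, where 10.0% of all genes were higher and 15.5% lower. This comparison counts any change that both genotypes share on day 3 as an effect of the knockout. Of the 22 genes that were higher against the controls of their own day, Polr1a, Wdr12 and Nhp2 remained higher, Imp4, Noc3l, Noc4l and Ppan were lower, and 15 did not pass. Within the knockout cells, 2 genes were higher and 6 lower on day 3 than on day 1.5 (6.97% and 13.7% of all genes), and 2 were higher and 18 lower on day 6 than on day 1.5 (15.9% and 14.3%). From day 3 to day 6 the knockout cells had 1 gene higher, Ltv1, and 14 lower (20.5% and 13.0% of all genes).

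**Figure D2:**
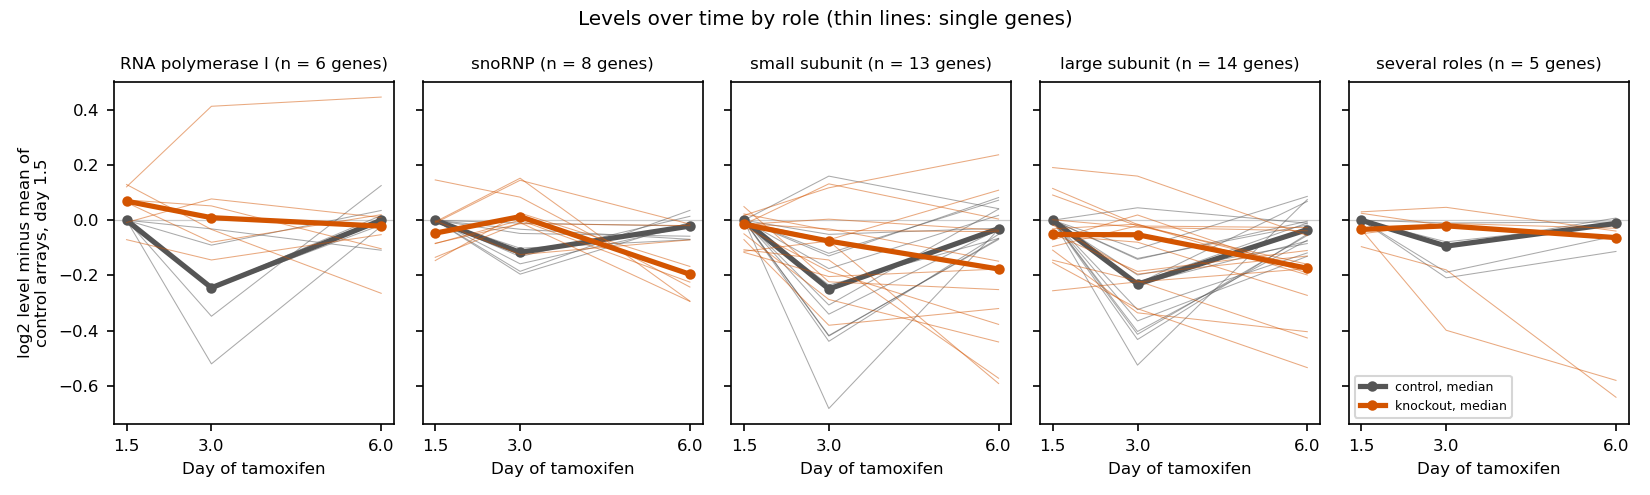
Log2 level of each gene minus its mean on the 2 control arrays of day 1.5 (vertical axis) on days 1.5, 3 and 6 (horizontal axis), in 1 panel per role. Thin lines are genes, each point the mean of 2 arrays, and thick lines are medians over the genes; in the small subunit panel the deepest control line on day 3 is Imp4, at -0.68.

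RNA polymerase I is read here through Polr1a to Polr1e and Tcof1. Polr1a encodes the largest, catalytic subunit. It read 696 and 701 in controls and 762 and 757 in knockout cells on day 1.5, 570.0 and 612 against 939.6 and 919.7 on day 3, and 694 and 720.0 against 971 and 932 on day 6. The knockout arrays stood above the control arrays on each day. The log2 fold change was 0.12 ± 0.054 (SE) on day 1.5 (adjusted p = 0.22), 0.65 ± 0.054 on day 3 (4.8e-05) and 0.43 ± 0.054 on day 6 (3e-04). Against the controls of days 1.5 and 6 it was 0.40 on day 3 (adjusted p = 0.00033), so Polr1a was higher under either choice of controls. Of its other probe sets, that with a mean intensity of 165.5 also rose on days 3 and 6, by 0.63 and 0.41. That with a mean of 460 rose by 0.53 on day 3 and was at 0.06 on day 6.

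Polr1e encodes a subunit that pairs with the product of Cd3eap and takes part in initiation. Its intensity was 614 and 639 in controls and 685 and 685 in knockout cells on day 1.5. On day 3 it was 479.8 and 505 against 600.5 and 624, and on day 6 it was 697 and 670.1 against 516 and 527. The genotypes thus changed places, without overlap on either day. The log2 fold change was 0.31 ± 0.053 on day 3 (adjusted p = 0.0025) and -0.39 ± 0.053 on day 6 (0.00047), and the difference between those days was -0.70 ± 0.074 (SE). Its other probe set gave 0.38 and -0.42. Against the controls of days 1.5 and 6 the day 3 value was -0.10 (adjusted p = 0.16).

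Polr1b, the partner of Polr1a in the catalytic core, read 1012 and 1097 in controls of day 3 and 1418 and 1318 in knockout cells (0.38 ± 0.060, adjusted p = 0.002). In the other groups it lay between 1426 and 1523. The low groups were thus those of day 3, the controls more than the knockout cells, and against the controls of days 1.5 and 6 its value was -0.13 (adjusted p = 0.095). On days 1.5 and 6 its log2 fold changes were -0.07 and -0.03, and neither passed.

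Polr1c and Polr1d encode subunits shared with RNA polymerase III. Polr1c read 3184 and 2847 in controls and 3528 and 3239 in knockout cells of day 3, and 3549.6 and 3511 against 3657 and 3589 on day 6. Polr1d read 5751 and 5810.4 against 6101 and 6146 on day 3, and 5536 and 5423 against 5305 and 5702 on day 6. Neither gene passed on any day, with log2 fold changes of 0.04 to 0.17 and 0.01 to 0.08. For Polr1d the probe sets disagreed: a probe set with a mean intensity of 3789 gave -0.64 on day 6, while the tested probe set gave 0.01. The probes of the tested one, like those of Polr1c and Polr1e, are of a type that other transcripts can share. The probe set with a mean of 3789 was also lower on day 1.5, at -0.34, and a probe set with a mean of 3600 was higher on day 3, at 0.26, both past the threshold. Tcof1, which encodes treacle, a cofactor of ribosomal DNA transcription, was at 0.17 on day 3, a call lost in 11 of 12 fits that left out an array. Its 2 other probe sets fell by 0.43 and 0.38 on day 6, where the tested probe set was at -0.03.

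**Figure D3:**
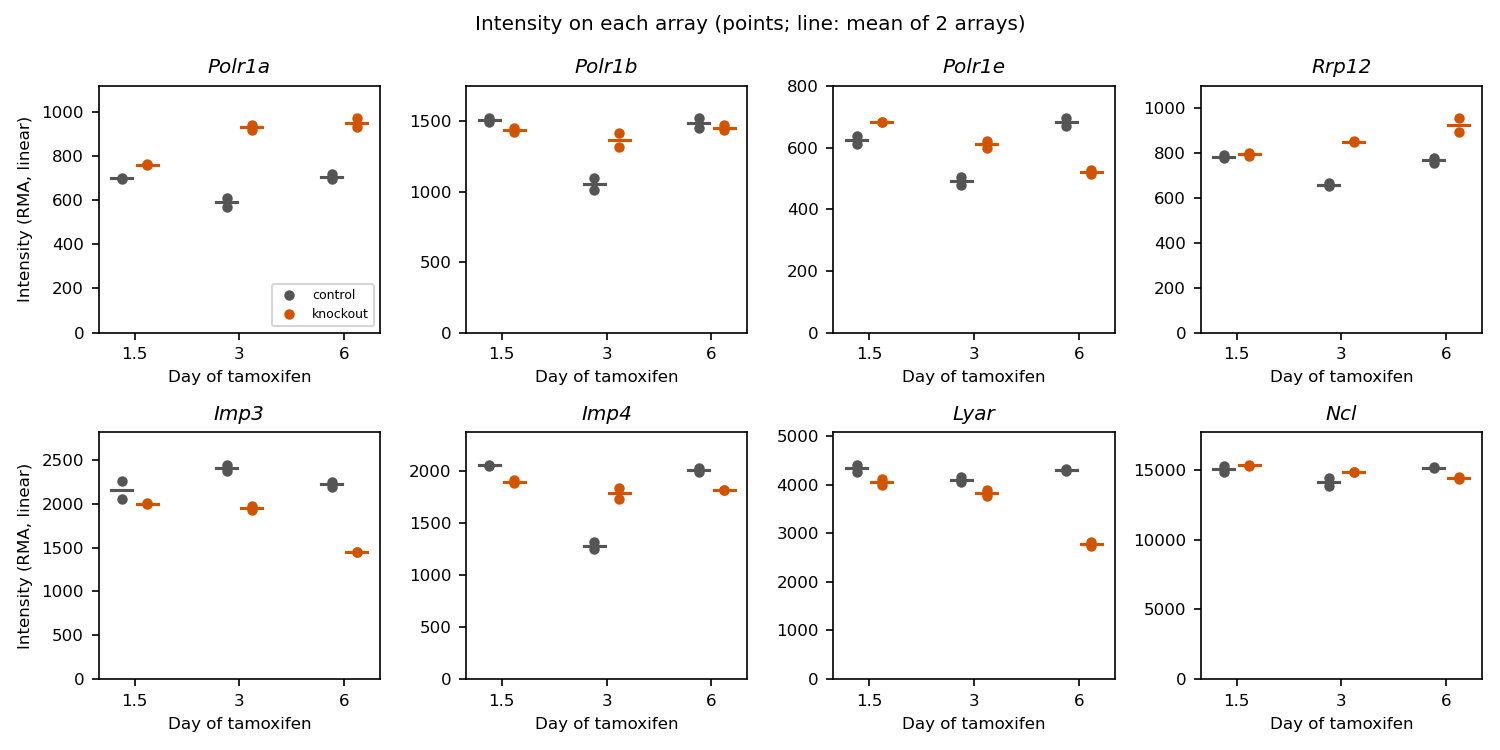
Intensity of 8 genes (linear vertical axes from 0) on each of the 12 arrays by day, with controls in grey and knockout cells in orange; lines are means of 2 arrays. Polr1a reads 919.7 to 971 in knockout cells of days 3 and 6 and at most 720.0 in controls, and Lyar reads 2741 and 2819 in knockout cells of day 6 and at least 4051 in controls.

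Of the snoRNP genes, 3 of 8 were higher and 0 lower on day 3 (13.3% and 10.0% of all genes). On day 6, 3 were lower and 0 higher (15.3% and 17.2%). The medians were 0.14 and -0.16 on the log2 scale, where those of all 46 genes were 0.16 and -0.11. Within the knockout cells, 6 of 8 were lower and 0 higher on day 6 than on day 3 (13.0% and 20.5% of all genes). Fibrillarin (Fbl), the methyltransferase of the box C/D particles, read 9129.8 and 9000.1 in controls and 9991 and 9698 in knockout cells of day 3, and 10015 and 10039.5 against 9800.3 and 9792 on day 6. Its log2 fold changes were 0.12 and -0.03, and those of the other box C/D core genes Nop56 and Nop58 were 0.03 and 0.16 on day 3 and -0.05 and -0.27 on day 6, none of which passed. Rrp9, a protein specific to the U3 particle, was at 0.19 on day 3, a call that 9 of 12 left-out arrays ended, and fell by 0.26 on day 6 (adjusted p = 0.007).

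Of the H/ACA genes, Dkc1, the pseudouridine synthase, fell on day 6 from 7655 and 7890.3 in controls to 6767 and 6537 in knockout cells (-0.22 ± 0.049, adjusted p = 0.0064). The call was lost without knockout replicate 2 of day 6. Gar1 and Nhp2, its partners in the particle, were at -0.10 and 0.04 on day 6 and did not pass. Nhp2 was higher on day 3, at 10421 and 10213 in controls and 11692 and 11887 in knockout cells (0.19 ± 0.053, adjusted p = 0.028), and at 0.17 against the controls of days 1.5 and 6. Leaving out any of the 4 arrays of day 3 ended that call. Nolc1, a chaperone of both kinds of particle, was at 0.28 on day 3 and -0.23 on day 6, and each call was lost when any of 3 arrays of that day was left out, that of day 3 also with the mean of all probe sets (0.16, adjusted p = 0.11). The other probe sets of Nolc1 fell by 0.60 and 0.43 on day 6 and were at -0.16 and 0.36 on day 3, where neither passed. The first of these was also lower on day 1.5, at -0.33, past the threshold.

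Among small subunit genes, 7 of 13 were higher and 1 lower on day 3 (13.3% and 10.0% of all genes), and 6 were lower and 1 higher on day 6 (15.3% and 17.2%). Imp3, Imp4 and Mphosph10 encode the proteins of a complex that binds the U3 RNA. Imp3 was the only gene of the 46 that was lower on both days. It read 2264 and 2052 in controls and 2006 and 1998 in knockout cells on day 1.5, 2445 and 2371 against 1933 and 1969.8 on day 3, and 2187 and 2251 against 1448 and 1452 on day 6. The fall was 0.30 on day 3 (adjusted p = 0.0047) and 0.61 on day 6 (4.9e-05, SE 0.057 on each day). Against the controls of days 1.5 and 6 the day 3 value was -0.16 (0.038).

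Mphosph10 did not differ past the threshold on day 3, with 1289.6 and 1146 in controls and 1212 and 1179 in knockout cells, whose ranges overlapped. On day 6 it read 1236 and 1233 against 828 and 845 (-0.56 ± 0.060, adjusted p = 0.00012). With the mean of all its probe sets, another of which is dim (mean intensity 55.9), it was at -0.20 and the call was lost (0.068). Imp4, the third of the complex, read 1319 and 1251 in controls and 1843 and 1736 in knockout cells of day 3 (0.48 ± 0.052, adjusted p = 0.00022), and 2031 and 1995 against 1824 and 1821 on day 6 (-0.14, adjusted p = 0.064). Its day 3 controls were its lowest arrays, and against the controls of days 1.5 and 6 it was lower, at -0.19 (adjusted p = 0.015). Another probe set of Imp4, with a mean intensity of 399, rose by 0.40 on day 6.

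Wdr43, Wdr75 and Heatr1 belong to the part of the processome that binds the nascent precursor first. Wdr43 read 2170.0 and 2100.4 in controls and 1577 and 1529.8 in knockout cells of day 6 (-0.46 ± 0.078, adjusted p = 0.0017). Its other probe set also fell, by 0.23. Wdr75 fell by 0.25 on that day, a call lost with the mean of all its probe sets (-0.20, adjusted p = 0.18), and Heatr1 was at -0.11 and did not pass. Nat10, which acetylates ribosomal RNA, fell by 0.37. None of these 4 genes passed on day 3.

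Rrp12, a protein of subunit maturation and export, was 1 of 2 genes, with Polr1a, that were higher on both days 3 and 6. It read 663 and 653 in controls and 846 and 850.0 in knockout cells on day 3, and 754 and 778 against 953 and 891 on day 6. The log2 fold changes were 0.37 ± 0.052 (adjusted p = 0.00099) and 0.27 ± 0.052 (0.0035), with 0.02 on day 1.5. Against the controls of days 1.5 and 6 the day 3 value was 0.13 (0.058).

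Rcl1, a factor of early precursor cleavage, read 888 and 841 in controls and 1145 and 1204 in knockout cells of day 3 (0.44 ± 0.057, adjusted p = 6e-04). In all other groups it read 1106 to 1198, and against the controls of days 1.5 and 6 its value was 0.03 (0.71). Bysl and Ltv1, which act late on the small subunit, and Nop14 were at 0.31, 0.24 and 0.31 on day 3 and at -0.12, 0.07 and -0.01 on day 6. The call of Ltv1 was lost without knockout replicate 1 of day 3. None of these 3 passed on day 6 or against the controls of days 1.5 and 6. Noc4l was at 0.20 on day 3 and -0.18 on day 6; leaving out any array of day 6 ended the call of day 6, and 9 of 12 left-out arrays ended that of day 3.

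Of the 14 large subunit genes, 7 were higher and 0 lower on day 3 (13.3% and 10.0% of all genes), and 7 were lower and 0 higher on day 6 (15.3% and 17.2%). The difference between the 2 effects passed toward lower values for 12 of 14, where 8.75% of all genes passed. Pes1, Bop1 and Wdr12 encode the PeBoW complex, which acts in precursor processing. On day 3 they were at 0.21, 0.21 and 0.30, and on day 6 at -0.08, -0.19 and -0.05. The day 3 call of Bop1 was lost in 7 of 12 fits without an array, and that of Pes1 without control replicate 2 or either knockout array of day 3. Only Bop1 passed on day 6, and 10 of 12 left-out arrays ended that call. The day 3 call of Wdr12 was lost with the mean of all its probe sets (0.18, adjusted p = 0.095), as was that of Bop1 (0.16, 0.31). Wdr12 was also the gene that was higher on day 1.5, with 1903 and 1908 in controls and 2149 and 2200.1 in knockout cells (0.19 ± 0.047, adjusted p = 0.036), a call lost in 10 of 12 such fits.

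Noc3l, which acts with Noc2l in early large subunit particles, was the gene that was lower on day 1.5. It read 835 and 796 in controls and 661 and 705 in knockout cells (-0.26 ± 0.059, adjusted p = 0.028), and leaving out any array of day 1.5 ended the call. On day 3 it read 555 and 578 against 725 and 673, and on day 6 it read 867 and 849 against 725 and 718. Knockout cells stayed between 661 and 725 while the controls ranged from 555 to 867. The call of day 6 was lost without control replicate 1 or knockout replicate 2 of that day. Its second probe set had the opposite sign on day 3, at -0.32 against 0.30, both past the threshold, so its direction on that day is unsettled. Noc2l read 1399 and 1425 in controls and 999 and 1037 in knockout cells of day 6 (-0.47 ± 0.067, adjusted p = 0.00064), and was at -0.11 on day 3.

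Nop16 and Grwd1, both of large subunit particles, were the other genes among the 6 largest rises of day 3. Nop16 read 873 and 875 in controls and 1165 and 1129.8 in knockout cells (0.39 ± 0.047, adjusted p = 4e-04). Grwd1 read 1382 and 1521 against 1968 and 1802 (0.38 ± 0.069, adjusted p = 0.004). On day 6 both were at 0.03, and against the controls of days 1.5 and 6 their day 3 values were both 0.01, with no call. Ppan was at 0.24 on day 3, a call lost without knockout replicate 2 of that day, and at -0.08 on day 6.

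Further falls of day 6 were in Rrp1b at -0.40, Ebna1bp2 at -0.31, Nip7 at -0.26 and the ribosomal RNA methyltransferase gene Nop2 at -0.19, the last lost in 10 of 12 fits without an array. The other 2 probe sets of Rrp1b fell by 0.77 and 0.69, more than the tested probe set. A dim probe set of Ebna1bp2 (mean intensity 16.5) and another probe set of Nip7 (139.8) rose by 0.49 and 0.28, past the threshold. With the mean of all probe sets the calls of Ebna1bp2 and Nip7 were lost (-0.0099 and 0.011). The direction of Nip7 on day 6 is thus unsettled. Gnl3, the nucleolar GTPase nucleostemin, and Rrs1 passed on no day, at -0.09 and -0.18 on day 6. Another probe set of Rrs1, with a mean intensity of 2761, fell by 0.27 on day 6, past the threshold.

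Among the nucleolar proteins with several roles, the abundant nucleolin (Ncl) and nucleophosmin (Npm1) passed on no day. Ncl read 13856 and 14389 in controls and 14835 and 14876 in knockout cells of day 3, and 15106 and 15194 against 14524 and 14324 on day 6. Npm1 read 20334 and 21587 against 21215 and 22379 on day 3, and 20799 and 21203 against 20235 and 20830.1 on day 6. The log2 fold changes were 0.07 and -0.07 for Ncl and 0.06 and -0.03 for Npm1. Other probe sets of Ncl disagreed with it and with each other. That with a mean intensity of 2015 was at -0.33 on day 1.5, 0.36 on day 3 and -0.29 on day 6, each past the threshold. On day 6 that with a mean of 3278 fell by 0.23 and the dimmest, with a mean of 75.5, rose by 0.49.

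Lyar, a zinc finger protein of the nucleolus, had the largest fall of day 6. It read 4413 and 4255 in controls and 4120.3 and 3991 in knockout cells on day 1.5, 4158 and 4051 against 3758 and 3895 on day 3, and 4284 and 4314 against 2741 and 2819 on day 6. Knockout arrays were below control arrays on each day, but only day 6 passed (-0.63 ± 0.050, adjusted p = 1.8e-05). The RNA helicase gene Ddx21 read 2278 and 2332 in controls and 1699 and 1639 in knockout cells of day 6 (-0.47 ± 0.10, adjusted p = 0.0063). Its second probe set fell as well, by 0.52, but on day 3 it was at 0.29 past the threshold where the tested probe set was at -0.19. Mybbp1a was at 0.18 on day 3 and 0.03 on day 6, and its call was lost without control replicate 2 or either knockout array of day 3.

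Exact matches to the core of the motif described for Ronin and its cofactor HCF-1 were searched on both strands of RefSeq promoter windows (GRCm38.p6, 250 bases before to 50 after a start). The core was taken as ACTACA, any 2 bases and TCCC. Of 46 genes 40 had a window. The core was in windows of 3 of them (7.5%) and of 563 of 27025 genes in all (2.08%). Among 103 other ribosome biogenesis genes with a window it was in 3 (2.91%). The 3 of the 40 genes were Polr1b, Nop14 and Nop16, whose windows are shown because they hold the core. Each was higher on day 3, at 0.38, 0.31 and 0.39, where 22 of the 46 genes and 13.3% of all genes were higher. None of the 3 passed on day 1.5, on day 6 or against the controls of days 1.5 and 6. Whether the core bears on the day 3 values was not tested. Bop1, Fbl, Npm1, Rrp12, Rrs1 and Tcof1 are named only.

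The windows are given along the strand of the gene, with the matches in capitals. The window of Polr1b lies at chr2:129100746-129101045 on the + strand with 1 match at -22 from the start. That of Nop16 lies at chr13:54590025-54590324 on the - strand with matches at -63 and -22, and that of Nop14 at chr5:34660099-34660398 on the - strand with matches at -154 and -101. In Nop16 and Nop14 the 2 matches are on opposite strands. A match is a description of these letters only.
Polr1b: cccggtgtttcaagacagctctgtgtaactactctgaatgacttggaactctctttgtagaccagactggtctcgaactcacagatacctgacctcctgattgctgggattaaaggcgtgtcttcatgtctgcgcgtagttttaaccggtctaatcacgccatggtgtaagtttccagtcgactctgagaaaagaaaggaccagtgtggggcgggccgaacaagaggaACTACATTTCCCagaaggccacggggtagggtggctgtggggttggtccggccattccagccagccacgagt
Nop16: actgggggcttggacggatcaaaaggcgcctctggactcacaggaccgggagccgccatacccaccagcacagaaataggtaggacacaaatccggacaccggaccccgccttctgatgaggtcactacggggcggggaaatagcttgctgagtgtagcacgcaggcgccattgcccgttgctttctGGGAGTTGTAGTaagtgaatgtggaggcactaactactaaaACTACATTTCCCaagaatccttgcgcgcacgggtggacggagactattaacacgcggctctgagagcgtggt
Nop14: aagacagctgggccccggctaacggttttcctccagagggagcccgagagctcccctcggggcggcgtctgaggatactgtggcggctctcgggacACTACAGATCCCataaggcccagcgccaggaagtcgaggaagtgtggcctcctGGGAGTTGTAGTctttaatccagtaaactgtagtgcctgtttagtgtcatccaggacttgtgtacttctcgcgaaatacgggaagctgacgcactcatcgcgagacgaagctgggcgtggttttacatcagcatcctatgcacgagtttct

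The E-box CACGTG, the site read by the MYC family, was in windows of 7 of the 40 genes (17.5%) and of 8.09% of all genes. Among the 103 other ribosome biogenesis genes with a window it was in 21 (20.4%). The 7 of the 40 genes were Grwd1, Imp4, Ltv1, Mybbp1a, Nop2, Pes1 and Wdr43. On day 3 Imp4, Grwd1, Ltv1, Pes1 and Mybbp1a were higher, while Nop2 at 0.12 and Wdr43 at -0.06 did not pass. On that day 22 of the 46 genes and 13.3% of all genes were higher. Against the controls of days 1.5 and 6, Imp4 and Wdr43 were lower and the rest of the 7 did not pass. On day 6 Nop2 and Wdr43 were lower, where 19 of the 46 genes and 15.3% of all genes were lower. The others did not pass on day 6, with Imp4 at -0.14, Pes1 at -0.08, Grwd1 and Mybbp1a at 0.03 and Ltv1 at 0.07. Whether the MYC family acts through these sites was not tested.

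The rest of the pathway was read through 125 other measured ribosome biogenesis genes, listed by symbol. On day 1.5, 4 were higher and 8 lower (3.2% and 6.4%, against 5.93% and 3.98% of all genes). On day 3, 40 of 125 were higher and 4 lower (median 0.13), against 13.3% and 10.0% of all genes. On day 6, 11 were higher and 60 lower (median -0.16), against 17.2% and 15.3%. In controls of day 3 against day 1.5, 68 were lower and 1 higher (18.2% and 9.12% of all genes). Against the controls of days 1.5 and 6 the knockout cells of day 3 had 36 lower and 10 higher (15.5% and 10.0%). Against controls of the same day, the 46 genes and these 125 thus had the same turn of direction, on arrays that they share. Against the controls of days 1.5 and 6, more genes were lower than higher on day 3 in both lists (14 and 3 of the 46).

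**Figure D4:**
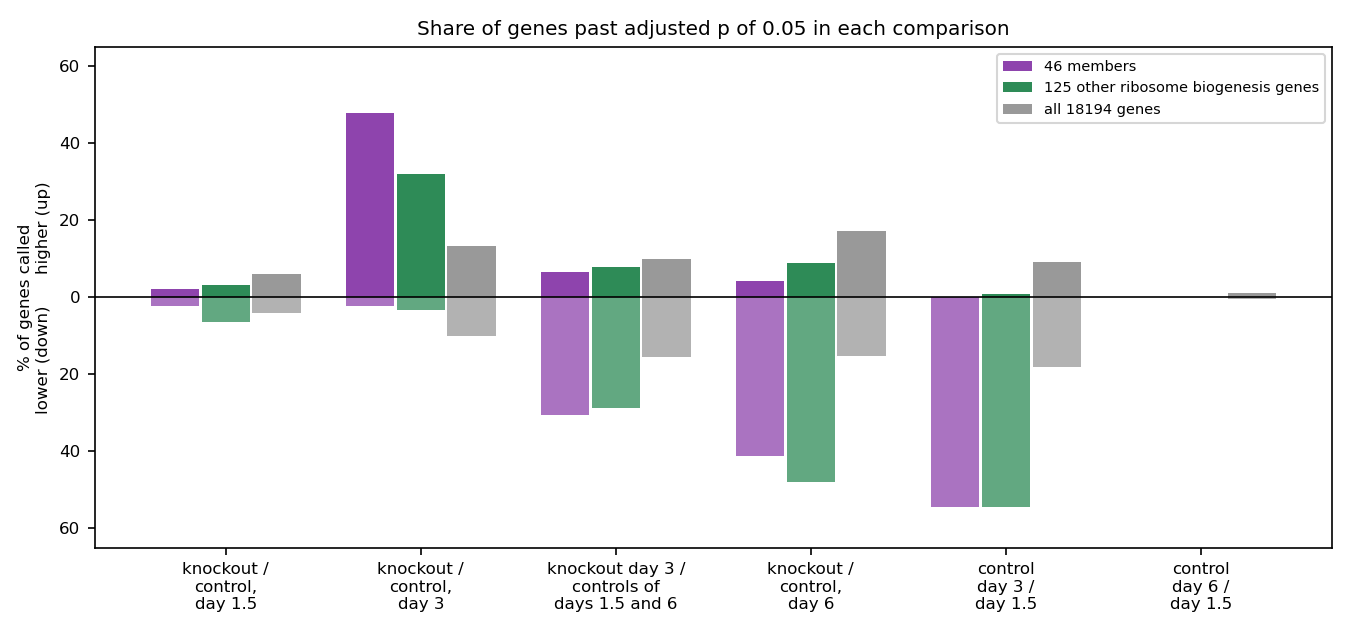
Share of genes called higher (bars above 0) or lower (bars below 0), in percent, among the 46 genes, 125 other ribosome biogenesis genes and all 18194 genes, in 6 comparisons. On day 6 the shares called lower are 41.3%, 48.0% and 15.3%, and in controls of day 6 against day 1.5 they are 0 for both lists.

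Several of these other genes moved more than any of the 46. Zfp593, linked to large subunit export, read 596 and 634 in controls and 1082 and 1161 in knockout cells of day 1.5, and rose by 0.87, 0.79 and 0.50 on the 3 days. Its day 3 value was 0.86 against the controls of days 1.5 and 6. The helicase gene Ddx47 rose by 0.23, 0.67 and 0.48, and Ddx49 by 0.30 on day 1.5. Dimt1, a methyltransferase of the small subunit RNA, fell from 798 and 798 in controls to 454 and 465 in knockout cells of day 6 (-0.80 ± 0.058, adjusted p = 1.1e-05), after -0.41 on day 3. Utp14a fell on each day, by 0.33, 0.27 and 0.69, Wdr36 fell by 0.27 on day 3, and Las1l and Tsr2 fell on day 1.5, by 0.32 and 0.34.

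The other RNA polymerase I factors had 3 of 14 higher on day 3 (21.4%, against 13.3% of all genes), and 2 higher and 5 lower on day 6 (14.3% and 35.7%, against 17.2% and 15.3%). Cd3eap, whose product pairs with that of Polr1e, rose by 0.67 on day 3 and was at 0.21 on day 6 (adjusted p = 0.074). Of the promoter selectivity factor, Taf1d fell by 0.77 on day 6 and Taf1a rose by 0.53. Ubtf, which opens ribosomal DNA, and Rrn3, which brings the polymerase to it, did not pass on any day, at 0.17 and 0.14 on day 3 and 0.03 and 0.04 on day 6.

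Myc and Mycn were higher in knockout cells of day 6, and whether they act on the ribosome biogenesis genes in these cells was not tested. Myc read 284 and 282 in controls of day 3, against 719.5 and 717 on day 1.5 and 691 and 672 on day 6, a control dip of 1.34 on the log2 scale. In knockout cells it read 681 and 692, 477 and 498, and 1032 and 1112 on the 3 days. Its knockout over control log2 fold change was 0.78 ± 0.054 on day 3 and 0.65 ± 0.054 on day 6 (adjusted p = 1.9e-05 and 2.3e-05), and -0.52 on day 3 against the controls of days 1.5 and 6. Mycn read 4351 and 4287 in controls and 5729 and 5911 in knockout cells of day 6 (0.43 ± 0.054, adjusted p = 3e-04). On day 3 Mycn was at 0.26 (adjusted p = 0.007), and at 0.17 against the controls of days 1.5 and 6 (0.027). In controls Mycn did not differ past the threshold between days 3 and 1.5 (-0.10). Max, the shared partner of the MYC proteins, fell by 0.72 on day 6, and the repressor gene Mnt rose by 0.51. Of the same family, Mycl rose by 0.36 and Mxi1 fell by 0.45 on that day. Among 11 measured genes of the MYC family and its partners, 6 were higher and 2 lower on day 6 (17.2% and 15.3% of all genes).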

How the data were processed

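RNA of 12 samples was hybridised to Affymetrix mouse arrays. The deposited values are probe set intensities on a linear scale, normalized by the authors with RMA, per the submitters' processing notes, and were taken to log2 here. The platform annotation gave 34958 of 45101 probe sets a single symbol, 932 more than 1 and 9211 no symbol. For each of 18194 genes the brightest single-symbol probe set was tested. A limma 3.58.1 model (R 4.3.3) with a mean for each of 6 groups used all 12 arrays, with 6 residual degrees of freedom, and Benjamini-Hochberg adjusted p-values over all genes were called at 0.05. Other probe sets of a gene were tested in a fit over all probe sets, with its own adjustment. That fit did not call the tested probe sets of Wdr12 and Noc3l on day 1.5. On day 3 it did not call those of Bop1, Pes1, Noc4l, Tcof1, Mybbp1a, Rrp9 and Nhp2, nor on day 6 those of Nop2, Bop1 and Noc4l. The method was tested on simulated data. Log2 fold changes are knockout minus control, with standard errors.

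The 46 genes, the other lists and the tests were chosen with earlier results of these data known. Named in each comparison were up to 6 called genes in each direction, by size, and always Polr1a to Polr1e, Fbl, Ncl and Npm1. For the other 125 genes up to 3 were named. Further genes were added by role. Same-numbered arrays did not deviate together (correlations -0.00375, -0.0573 and 0.0278), so numbers were not used as pairs. Alternatives were a replicate block, other moderation, filters, scalings, probe set choices, the arrays compared alone, other controls and leaving out each array.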

Additional observations from a re-analysis of the deposited data

Results flagged for a closer look

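The knockout over control log2 fold change differed between days for the genes named here, by a limma test of the difference itself with adjusted p under 0.05. Day 6 minus day 3 was negative for all 28 that passed. Among RNA polymerase I genes it was -0.41 for Polr1b and -0.70 for Polr1e. Among snoRNP genes it was -0.25 for Dkc1, -0.51 for Nolc1 and -0.44 for Rrp9. Among small subunit genes it was -0.42 for Bysl, -0.31 for Imp3, -0.62 for Imp4, -0.54 for Mphosph10, -0.32 for Nat10, -0.38 for Noc4l, -0.32 for Nop14, -0.43 for Rcl1, -0.40 for Wdr43 and -0.29 for Wdr75. Among large subunit genes it was -0.40 for Bop1, -0.41 for Ebna1bp2, -0.34 for Grwd1, -0.35 for Nip7, -0.37 for Noc2l, -0.55 for Noc3l, -0.36 for Nop16, -0.31 for Nop2, -0.30 for Pes1, -0.32 for Ppan, -0.45 for Rrp1b and -0.35 for Wdr12. Among nucleolar proteins with several roles it was -0.53 for Lyar.

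For day 3 minus day 1.5, 13 genes passed and all were positive (7.62% of all genes passed higher and 7.34% lower). Among RNA polymerase I genes it was 0.53 for Polr1a and 0.45 for Polr1b. Among snoRNP genes it was 0.27 for Gar1. Among small subunit genes it was 0.32 for Bysl, 0.59 for Imp4, 0.32 for Nop14, 0.46 for Rcl1 and 0.35 for Rrp12. Among large subunit genes it was 0.38 for Grwd1, 0.56 for Noc3l, 0.30 for Nop16, 0.31 for Pes1 and 0.25 for Ppan.

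For day 6 minus day 1.5, 2 genes were positive and 10 negative (9.32% of all genes passed higher and 10.0% lower). Among RNA polymerase I genes it was 0.31 for Polr1a and -0.52 for Polr1e. Among snoRNP genes it was -0.38 for Nolc1. Among small subunit genes it was -0.51 for Imp3, -0.45 for Mphosph10, -0.33 for Nat10, 0.25 for Rrp12 and -0.44 for Wdr43. Among large subunit genes it was -0.37 for Nip7, -0.36 for Noc2l and -0.24 for Wdr12. Among nucleolar proteins with several roles it was -0.53 for Lyar.

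The day 3 effects behind these differences rest on controls that were themselves lower on day 3 for 25 of 46 genes, and the part of that dip in the differences was not tested. The differences between days 6 and 1.5 use no array of day 3 in their values.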

How the results depend on the processing

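Leaving out each array in turn gave 0 to 1 genes higher and 0 to 1 lower on day 1.5, 13 to 21 higher and 1 lower on day 3, and 2 higher and 13 to 20 lower on day 6; where a group keeps 1 array, it is assumed to vary like the others. In controls it gave 0 to 1 higher and 16 to 28 lower from day 1.5 to 3, and 11 to 23 higher and 0 lower from day 3 to 6. For day 6 minus day 3 it gave 15 to 26 lower. The counts of day 6 stayed within 1.5 times their value under all alternatives run. A replicate block over all arrays left 0 genes higher on day 1.5. The replicate block within each day left 0 higher and 0 lower on day 1.5, 12 lower in controls from day 1.5 to 3, 10 higher from day 3 to 6, and 15 lower for day 6 minus day 3. Moderation with a trend and robust variances gave 3 higher and 5 lower on day 1.5, 2 lower on day 3, 1 higher in controls from day 1.5 to 3, and 1 lower in controls from day 3 to 6. Without dim genes, 3 were lower on day 1.5 and 1 higher in controls from day 1.5 to 3. Quantile scaling gave 1 higher and 15 lower in controls from day 1.5 to 3, and 13 higher and 1 lower from day 3 to 6. With the mean of all probe sets, 0 were higher on day 1.5 and 1 lower in controls from day 3 to 6. With only the arrays compared, 0 were higher and 0 lower on day 1.5, 10 higher on day 3, 14 lower and then 11 higher in controls, and 18 lower for day 6 minus day 3. Against controls of days 1.5 and 6, 3 were higher and 14 lower on day 3, and the sign turned for Bop1 (-0.0092), Noc3l (-0.26), Ppan (-0.17), Polr1b (-0.13), Polr1e (-0.096), Bysl (-0.015), Ltv1 (-0.091), Noc4l (-0.19), Imp4 (-0.19) and Rrp9 (-0.018). With the mean of all probe sets it turned for Noc3l on day 3 (-0.0078) and for Bop1 (0.045) and Nip7 (0.011) on day 6. The cause was not tested.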
